A study of Homo sapiens with 6 samples.

Results

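The B-cell receptor signaling genes described here were 45 genes chosen for their known roles: receptor chains and coreceptors (9 genes), proximal kinases and their regulators (7), adaptors and signalling enzymes (15), phosphatases, ubiquitin ligases and inhibitory adaptors (6), and calcium and NFAT genes (8). They were 45 of the 19740 genes that the arrays could be matched to by RefSeq accession, and 62 probes measured them. The cells were SU-DHL-2, a human diffuse large B-cell lymphoma (DLBCL) line. The 3 IL-17A samples were exposed to interleukin 17A at 200 pg/ml for 72 h, and the 3 control samples were cultured without it. All 6 samples were the same line in serum-containing medium, and no sample carried a genetic change made by the study. Each was measured on 1 one-colour Agilent array, so every value below is a brightness on the log2 scale, and each difference is IL-17A minus control. The sources used here do not say whether the 3 samples of a group came from independent cultures, so the p-values measure only the spread between these samples.

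The B-cell receptor is a membrane immunoglobulin held together with the CD79A and CD79B chains, whose cytoplasmic tails are phosphorylated by the Src-family kinases when antigen binds. SYK docks on those tails and, with BTK and the scaffold BLNK, activates phospholipase PLCG2, which opens intracellular calcium stores and leads to nuclear entry of the NFAT factors. Inhibitory coreceptors such as CD22 and FCGR2B recruit the phosphatases PTPN6 and INPP5D, which turn the signal down, and signalling through this pathway is known for sustaining many lymphomas of mature B cells.

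Before the members' values, the quality of the arrays and the identity of the cells were examined. Detected probes numbered 23729 to 24077 per control array and 23570 to 23718 per IL-17A array, and no spot was saturated. All 11 of 11 B-cell markers were detected, with a summed signal of 77965 to 79833 on the IL-17A arrays and 73015 to 76131 on the control arrays. Of the T and NK cell markers 8 of 11 were detected (KLRD1, NCAM1 and TRAT1 on no array), with a summed signal of 1108 to 1201 against 1285 to 1476. This sum rests mostly on CD4, the brightest of them (mean log2 signal 9.80 with IL-17A and 10.11 without). Of the 8 tested T and NK cell markers, 4 were higher with IL-17A and the rest lower. The detected share was 2 of the 8 monocyte markers on the array (CSF1R, FCGR3A, MRC1, S100A8 and S100A9 on no array; summed signal 48.9 to 58.5 against 58.6 to 68.7), 6 of 7 endothelial markers (KDR on no array; 279 to 291 against 323 to 363) and 2 of 7 mesenchymal markers (COL1A2, COL3A1, DCN, LUM and THY1 on no array; 25.0 to 31.3 against 21.9 to 31.2). The part of these markers in the results below was not tested. All 6 samples were cultures of the SU-DHL-2 line, and the study describes no other cell type added to them. The summed signals therefore describe bulk RNA of these cultures and do not measure numbers of other cells. The scan records place the 3 control arrays and IL-17A replicate 1 in one scan and IL-17A replicates 2 and 3 in another, so within-scan values rest on 1 IL-17A array.

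Promoters are shown for FCGR2B, LIME1 and NFATC3, the members with the lowest and the highest differences, which were chosen after their values were seen. In total, 36 of the 45 members had at least 1 window in the RefSeq promoter table (GRCh38.p14), 63 windows in all, each running from 250 bases before to 50 bases after a gene's start. The motif searched was TGGAAA, a form of the NFAT site, on either strand (TTTCCA on the other), which has no overlap with another motif searched here. Other forms of the NFAT site were not searched or counted. The motif is in capitals below. FCGR2B and LIME1 each had a pair of windows, of which 1 is printed for each gene (for FCGR2B the one that holds the motif, for LIME1 the one further upstream).
FCGR2B, chr1:161662893-161663192, plus strand: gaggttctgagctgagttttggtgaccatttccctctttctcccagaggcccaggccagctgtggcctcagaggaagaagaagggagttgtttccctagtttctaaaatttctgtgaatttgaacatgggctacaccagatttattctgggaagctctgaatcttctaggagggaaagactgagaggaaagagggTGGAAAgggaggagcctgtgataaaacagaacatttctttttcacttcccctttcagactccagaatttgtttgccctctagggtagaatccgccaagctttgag
LIME1, chr20:63735451-63735750, plus strand: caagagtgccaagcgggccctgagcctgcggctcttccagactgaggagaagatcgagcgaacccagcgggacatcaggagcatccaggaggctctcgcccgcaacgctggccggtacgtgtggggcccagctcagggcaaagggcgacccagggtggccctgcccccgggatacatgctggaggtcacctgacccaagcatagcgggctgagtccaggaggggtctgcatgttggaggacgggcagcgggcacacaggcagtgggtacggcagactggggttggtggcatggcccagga
NFATC3, chr16:68085120-68085419, plus strand: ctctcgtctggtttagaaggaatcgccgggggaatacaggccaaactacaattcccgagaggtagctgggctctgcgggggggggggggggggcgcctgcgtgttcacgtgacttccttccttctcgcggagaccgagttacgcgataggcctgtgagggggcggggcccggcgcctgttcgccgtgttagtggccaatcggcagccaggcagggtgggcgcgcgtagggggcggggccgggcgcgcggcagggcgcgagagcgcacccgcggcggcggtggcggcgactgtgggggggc
The FCGR2B window held 1 match, and the LIME1 and NFATC3 windows held 0. GC content was 46.7% in the FCGR2B window, 66.7% in the LIME1 window and 71.7% in the NFATC3 window, against a median of 58.7% over all windows of the table. Among the members 9 of 63 windows (14.3%) held the motif, against 7285 of 35116 windows (20.7%) in the whole table. The members with a match were BLNK, FCGR2B, NFATC1, NFATC2, PLCG2, SH3BP2, SOS1, SYK and VAV3. A match is a description of the letters in the window, not a binding site.

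To examine whether IL-17A altered the transcript levels of the receptor pathway, the 44 members detected on at least 3 arrays were compared between the groups, each at its brightest probe. SH3BP2, an adaptor that binds SYK and phospholipase C, was not tested: of its 2 probes, 1 was detected on 1 control array and the other on none. The 44 tested members were detected on all 6 arrays, and 0 averaged below 4 on the log2 scale, against 15.3% of all 14747 tested genes.

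None of the 44 members passed a fold change of 1.5 together with an unadjusted p under 0.05 in limma (0 higher, 0 lower), where 0.814% of all tested genes passed as higher and 1.11% as lower. The count at that unadjusted p alone was 15 members, of which 10 were higher (22.7%, against 16.9% of all genes) and 5 lower (11.4%, against 14.8%). The methods' t-test also called 0 members at both thresholds. After Benjamini-Hochberg adjustment of the limma p-values, 0 members rose, against 4.37% of all genes. The genes that fell were 2 of 44 (4.55%), against 3.48% of all genes: FCGR2B and LIME1. Over the alternative settings this count ran from 0 (the methods' t-test among them) to 10, the latter with a variance trend in limma (7 higher and 3 lower, together 22.7% of the members against 17.7% of all genes in that setting).

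The members' differences were small in both directions. The median log2 fold change over the 44 members was 0.028, against 0.0032 over all tested genes, and the median size of the difference regardless of sign was 0.11 in both sets. In all, 24 members were higher and 20 lower in the IL-17A samples, compared with 50.9% of all genes higher. For 21 members the difference was within 0.1 on the log2 scale, and 45.3% of all genes lay that close to 0. The range ran from -0.29 (LIME1, 1.22-fold lower) to 0.30 (NFATC3, 1.23-fold higher). The 95% intervals of all 44 members, taken one gene at a time, lay within a 1.5-fold change, the widest reach being 1.45-fold upward and 1.35-fold downward. With the scan as a block 40 of 44 intervals lay within 1.5-fold, the exceptions being CD37, CD22, NFATC3 and NFATC2. Averaging over probes put the intervals of CBLB and NFATC2 past 1.5-fold, the replicate block that of NFATC2, and leaving out 1 array those of 0 to 2 genes among NFATC2, CR2 and CD22.

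**Figure D1:**
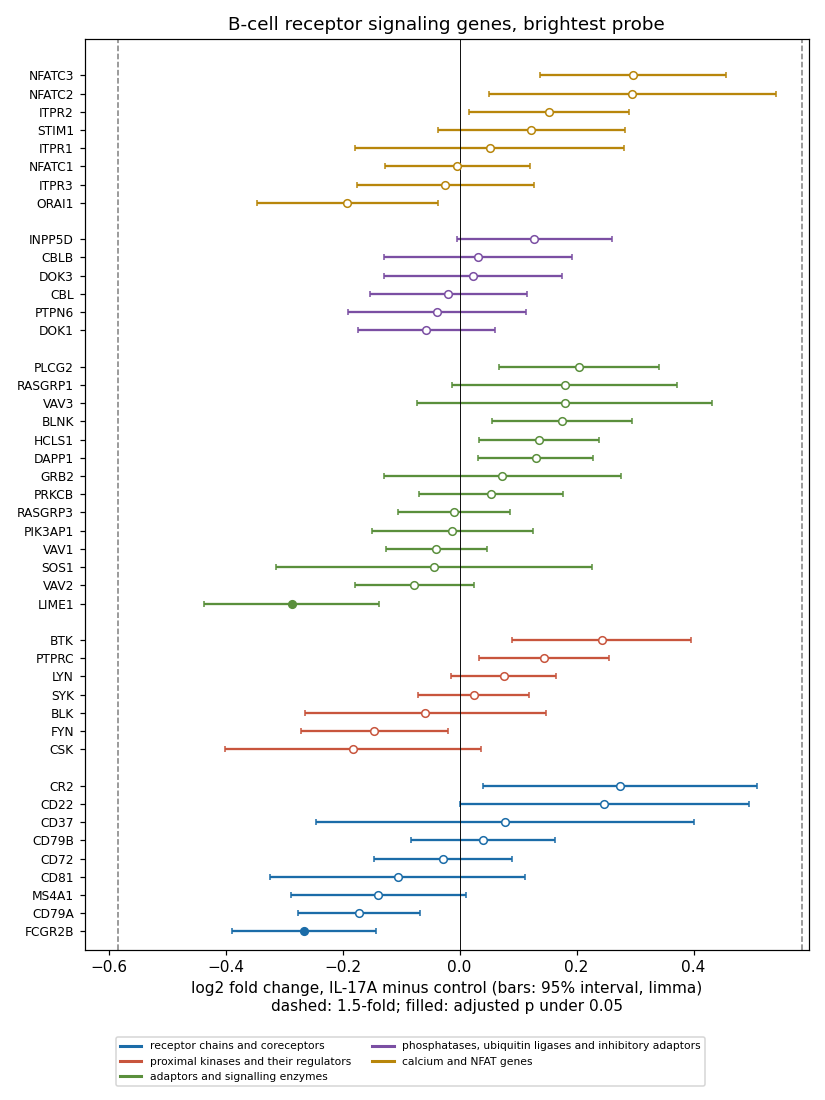
Log2 fold change (IL-17A minus control) of the 44 tested members, grouped by role, with 95% intervals from limma (3 arrays per group); dashed lines mark 1.5-fold and filled points an adjusted p under 0.05. Every interval lies between the dashed lines, and FCGR2B and LIME1 are the 2 filled points.

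The plot of the members by role shows points on both sides of 0 in all 5 groups. Members whose IL-17A and control arrays did not overlap numbered 14 higher (31.8%) and 7 lower (15.9%), against 21.3% and 19.3% of all tested genes. For one gene at a time, exact permutation of 3 against 3 samples has 0.1 as its smallest p. The distribution of differences over the members is set beside that over all genes in the histograms.

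**Figure D2:**
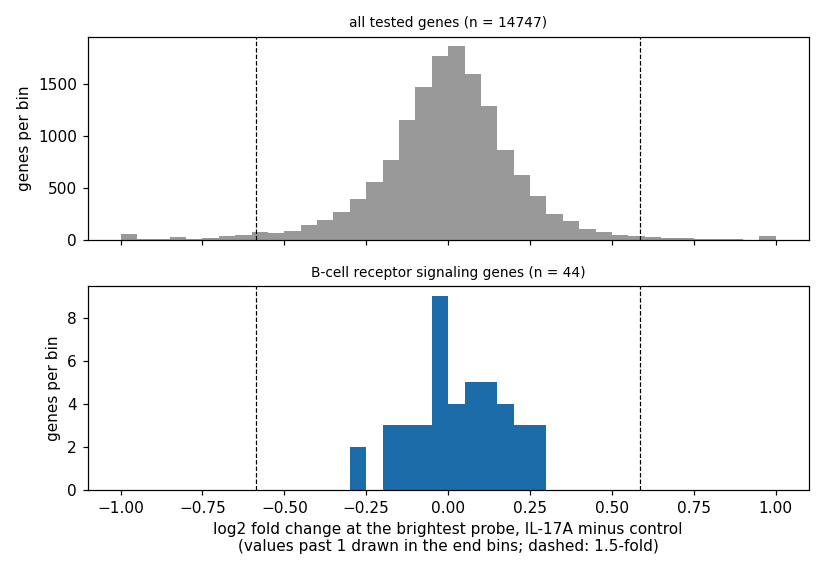
Number of genes per bin of log2 fold change (IL-17A minus control, brightest probe) for all 14747 tested genes (top) and the 44 members (bottom), with dashed lines at 1.5-fold and values past 1 drawn in the end bins. The members occupy the centre of the distribution, from -0.29 to 0.30, and none reaches a dashed line.

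Among the receptor chains and coreceptors, 9 of 9 were tested, 4 were higher, 1 fell (FCGR2B) and the median log2 fold change was -0.028. FCGR2B, the inhibitory Fc receptor of B cells, had log2 signals of 5.21, 5.17 and 5.13 on the IL-17A arrays and 5.36, 5.45 and 5.50 on the control arrays. All 3 IL-17A arrays lay below all 3 control arrays. The mean was 5.17 ± 0.04 (SD, n = 3) with IL-17A and 5.44 ± 0.07 without, a log2 fold change of -0.27 (SE 0.05, limma adjusted p = 0.0417). Both means correspond to a dim signal, 36.0 and 43.3 on the linear scale. FCGR2B has related neighbours in the genome, FCGR2A and FCGR2C, and whether their transcripts share this probe was not tested. With normexp correction of the background (offset 50) the log2 fold change was -0.13 (adjusted p = 0.0371). When any 1 of the 6 arrays was left out the log2 fold change was -0.30 to -0.24 and the adjusted p 0.0653 to 0.158, above the threshold, but with 5 arrays the calls over all tested genes also dropped, from 1157 to between 1 and 43 in 5 of 6 cases and to 608 without control replicate 3. Within the scan that holds both groups, the log2 fold change was -0.23 (unadjusted p = 0.0258 in limma, adjusted p = 0.163).

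CD79A and CD79B are the signalling chains of the receptor. CD79A's log2 signals were 13.60, 13.50 and 13.57 with IL-17A and 13.74, 13.74 and 13.70 without, so the groups did not overlap. The log2 fold change was -0.17 (SE 0.04, limma adjusted p = 0.0629), 1.13-fold lower and short of the threshold after adjustment. CD79B, by contrast, read 12.87, 12.75 and 12.81 with IL-17A and 12.81, 12.77 and 12.72 without. Its arrays overlapped, and the log2 fold change was 0.041 (SE 0.05, adjusted p = 0.611). The difference between the chains in their response was not tested.

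CD22, an inhibitory lectin that dampens receptor signals, had log2 signals of 9.78, 9.47 and 9.62 with IL-17A and 9.45, 9.43 and 9.24 without. The groups were separated by a narrow gap, and the log2 fold change of 0.25 (SE 0.10) did not pass in limma (adjusted p = 0.160). MS4A1, which encodes CD20, the target of rituximab, read 9.03, 9.13 and 9.03 with IL-17A against 9.10, 9.23 and 9.27. One control array lay among the IL-17A values, and the log2 fold change was -0.14 (SE 0.06, adjusted p = 0.184; 95% interval -0.29 to 0.01). CR2, the complement receptor CD21, was measured by a pair of probes with log2 fold changes of 0.27 (adjusted p = 0.119) and 0.25 (adjusted p = 0.0928), neither of which passed. Averaged over both probes it was 0.26 and passed (adjusted p = 0.0245). With the scan as a block the brighter probe gave 0.14 and the other 0.40. CD72, CD81 and CD37, further surface regulators of B cells, lay between -0.11 and 0.077 and did not pass.

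**Figure D3:**
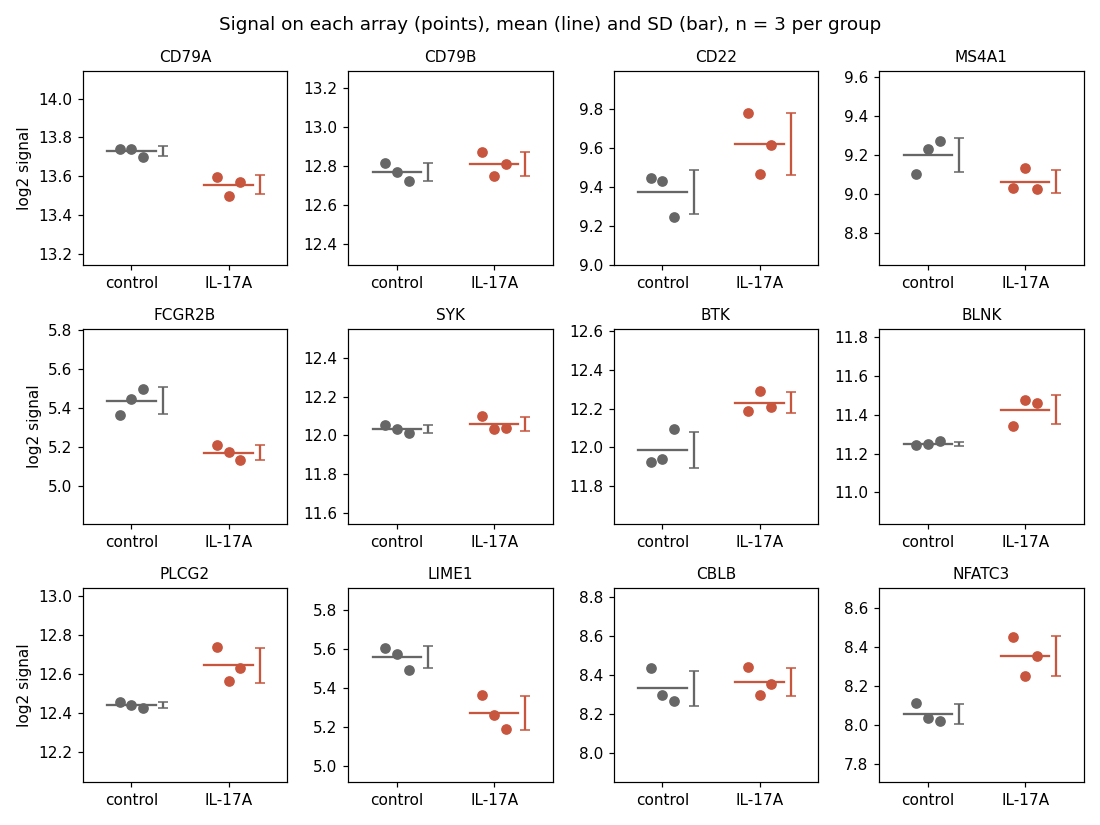
Log2 signal of 12 members on each array (points; control grey, IL-17A red), with the group mean (line) and SD (bar), n = 3 per group; every panel spans the same 1 log2 unit. FCGR2B, LIME1 and CD79A sit lower with IL-17A without overlap, BTK, BLNK, PLCG2, NFATC3 and CD22 sit higher without overlap, and SYK, CD79B, MS4A1 and CBLB overlap.

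None of the 7 proximal kinases and their regulators changed by adjusted p in limma (at an unadjusted p under 0.05, 2 were higher and 1 lower), 4 were higher than control and the median log2 fold change was 0.024. SYK, the kinase that docks on the receptor chains, read 12.10, 12.03 and 12.04 with IL-17A and 12.05, 12.03 and 12.01 without. The groups overlapped and the log2 fold change was 0.024 (SE 0.04, adjusted p = 0.697), with a 95% interval of -0.07 to 0.12. LYN, the main Src-family kinase of B cells, read 10.86, 10.81 and 10.82 against 10.77, 10.74 and 10.75. Its groups did not overlap because the arrays were tightly grouped, but the log2 fold change was only 0.075 (SE 0.04, adjusted p = 0.215).

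BTK, the Tec-family kinase targeted by ibrutinib, showed the highest difference of the kinases. Its log2 signals were 12.19, 12.29 and 12.21 with IL-17A and 11.93, 11.94 and 12.09 without, with no overlap. The log2 fold change was 0.24 (SE 0.06), and the adjusted p of 0.0671 in limma missed the threshold. A second BTK probe gave 0.14 (adjusted p = 0.282). FYN and BLK, Src-family kinases, and CSK, the kinase that restrains them, had log2 fold changes of -0.15, -0.058 and -0.18, with adjusted p of 0.120 or more. PTPRC (CD45), the phosphatase that activates Src-family kinases, gave 0.14 at its brightest probe (adjusted p = 0.0965) and between -0.00038 and 0.12 at 3 others.

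The adaptors and signalling enzymes held the other gene that fell. Of 15 members 14 were tested, 8 were higher, 1 fell (LIME1), and the median log2 fold change was 0.063. LIME1, a transmembrane adaptor phosphorylated by Src-family kinases, read 5.36, 5.26 and 5.19 with IL-17A and 5.61, 5.57 and 5.49 without. Every IL-17A array was below every control array. The mean was 5.27 ± 0.09 (SD, n = 3) against 5.56 ± 0.06, a log2 fold change of -0.29 (SE 0.06, limma adjusted p = 0.0492). As for FCGR2B, both means correspond to a dim signal, 38.6 with IL-17A and 47.1 without on the linear scale. With any 1 array left out LIME1's log2 fold change was -0.33 to -0.25 and the limma adjusted p 0.0623 to 0.169, above the threshold. Few calls were again left over all genes, except without control replicate 3, where 608 genes were called but LIME1 was not. With normexp correction of the background (offset 50) the log2 fold change was -0.087 (adjusted p = 0.145). With the scan as a block, LIME1's log2 fold change was -0.19, again resting on IL-17A replicate 1.

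PLCG2, the phospholipase that produces the calcium-releasing messenger, read 12.74, 12.56 and 12.63 with IL-17A and 12.46, 12.44 and 12.42 without. The control arrays were nearly equal and the groups did not overlap, with a log2 fold change of 0.20 (SE 0.05, adjusted p = 0.0742). BLNK, the scaffold that brings BTK to PLCG2, read 11.34, 11.48 and 11.46 against 11.24, 11.25 and 11.26. Its groups were likewise separate, yet the log2 fold change of 0.17 (SE 0.05) gave an adjusted p of 0.0781 and its second probe gave 0.043 (adjusted p = 0.651). With the scan as a block, PLCG2 gave 0.30 and the BLNK probes 0.091 and 0.12. HCLS1 and DAPP1, substrates of the proximal kinases, had log2 fold changes of 0.14 and 0.13 (adjusted p = 0.0935 for each). The remaining tested members of the group, namely the exchange factors VAV1, VAV2, VAV3, SOS1, RASGRP1 and RASGRP3, the adaptors GRB2 and PIK3AP1 and the kinase PRKCB, ranged from -0.077 to 0.18 and did not pass.

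Of the 6 phosphatases, ubiquitin ligases and inhibitory adaptors, 0 changed by adjusted p in limma (0 at an unadjusted p under 0.05 as well), 3 were higher and the median log2 fold change was 0.0019. INPP5D (SHIP1), the lipid phosphatase recruited by FCGR2B, read 12.54, 12.63 and 12.57 with IL-17A and 12.40, 12.42 and 12.54 without. The lowest IL-17A array and the highest control array nearly coincided, and the log2 fold change was 0.13 (SE 0.05, adjusted p = 0.169). PTPN6 (SHP-1), the phosphatase recruited by CD22, read 6.88, 6.72 and 6.88 against 6.92, 6.84 and 6.83. These arrays overlapped, with a log2 fold change of -0.039 (SE 0.06, adjusted p = 0.697). CBL, a ubiquitin ligase, and DOK1 and DOK3, inhibitory adaptors, lay between -0.057 and 0.023.

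CBLB, a ubiquitin ligase that limits receptor signals, was the member whose probes differed most. The study lists CBLB as upregulated in a network built from these same arrays, so the values below are not independent evidence. The study does not say which CBLB probe its call rests on. At the brightest probe the log2 signals were 8.44, 8.30 and 8.35 with IL-17A and 8.44, 8.30 and 8.27 without, an overlap with a log2 fold change of 0.031 (SE 0.06, adjusted p = 0.772). The dimmer probe read 3.41, 2.90 and 3.28 against 2.53, 2.35 and 2.33, a log2 fold change of 0.80 (SE 0.14, adjusted p = 0.0394 in limma). This was 1 of the 60 tested member probes past both thresholds, and no other one passed. The mean linear signal of the dimmer probe was 9.18 with IL-17A and 5.29 without, where the lowest normalized signal well above background was 4.67 to 4.75 on the IL-17A arrays and 4.21 to 4.57 on the control arrays, and after normexp correction with an offset of 50 its log2 fold change was 0.068. With any 1 array left out its log2 fold change was 0.69 to 0.94 and its adjusted p 0.0708 to 0.147. With the scan as a block its log2 fold change was 1.01, resting on IL-17A replicate 1. Whether the probes detect different transcripts of CBLB was not tested.

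**Figure D4:**
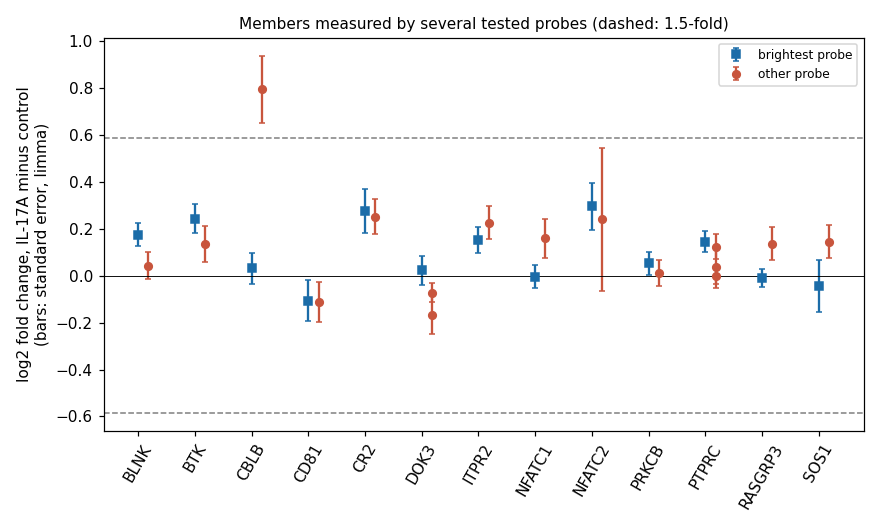
Log2 fold change (IL-17A minus control) at each tested probe of the 13 members with several, with standard errors from limma (3 arrays per group); squares are brightest probes, circles the others, dashed lines 1.5-fold. The dimmer CBLB probe, at 0.80, is the only point past a dashed line.

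As the plot of probes shows, 13 members were measured by several tested probes, 29 probes in all. The probes of 8 members had the same sign, and those of 5 (PTPRC, DOK3, SOS1, RASGRP3 and NFATC1) did not. In 0 of these 5 did probes of opposite sign both reach an unadjusted p under 0.05 in limma. The other 31 tested members had 1 tested probe each, FCGR2B, LIME1 and NFATC3 among them, so their differences have no second probe to compare with.

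The 8 calcium and NFAT genes had the highest median of the 5 groups, 0.087, with 5 higher and 0 changed by adjusted p in limma (at an unadjusted p under 0.05, 3 were higher and 1 lower). NFATC3, an NFAT transcription factor, read 8.45, 8.25 and 8.36 with IL-17A and 8.11, 8.03 and 8.02 without. Its groups did not overlap, and the log2 fold change of 0.30 (SE 0.06, adjusted p = 0.0513) was the highest of all members and just outside the threshold. NFATC2 read 4.19, 4.09 and 4.40 against 4.03, 3.95 and 3.82, with a log2 fold change of 0.30 (SE 0.10, adjusted p = 0.113). These genes and ORAI1, below, were picked out after their values were seen. NFATC1, by comparison, read 11.44, 11.50 and 11.46 against 11.40, 11.48 and 11.54. Its arrays overlapped fully, with a log2 fold change of -0.0037 (SE 0.05, adjusted p = 0.969), and a second probe gave 0.16 (adjusted p = 0.245).

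ORAI1, the pore of the store-operated calcium channel, read 8.06, 8.21 and 8.14 with IL-17A and 8.42, 8.28 and 8.28 without. It was lower without overlap, and the log2 fold change of -0.19 (SE 0.06) did not pass (adjusted p = 0.106). STIM1, the calcium sensor of the store that opens ORAI1, had a log2 fold change of 0.12 (adjusted p = 0.249). The inositol trisphosphate receptors, which release stored calcium, gave 0.051 (ITPR1), 0.15 (ITPR2) and -0.025 (ITPR3) at their brightest probes, with adjusted p of 0.131 or more.

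A list of 67 further genes of the receptor pathway was examined in the same way, of which 62 were tested. Their median log2 fold change was 0.055, and by adjusted p in limma 5 rose (8.06%, against 4.37% of all genes) and 2 fell (3.23%, against 3.48%). The 11 tested genes of the RAS, RAF and ERK list included HRAS, which fell (log2 fold change -0.21, adjusted p = 0.0418). Among the 10 calcineurin, calmodulin and store-operated calcium genes, the channel ORAI3 rose (0.34, adjusted p = 0.0329) and the calcineurin catalytic subunit PPP3CB fell (-0.24, adjusted p = 0.0414). The other coreceptors, adaptors and inhibitors (26 tested) held 4 genes that rose, GRAP, FCRL1, LAIR1 and LCP2. The last of these was detected only on IL-17A arrays, and the counts above include it.

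GRAP, an adaptor related to GRB2, had a log2 fold change of 0.39 (SE 0.04, limma adjusted p = 0.0311). Its other probe gave 0.27 (adjusted p = 0.213). FCRL1, an Fc receptor-like protein of B cells, had one of 0.33 (adjusted p = 0.0490), while its other probe gave 0.0066 (adjusted p = 0.974). LAIR1, an inhibitory collagen receptor, rose by 0.63 on the log2 scale (adjusted p = 0.0340), while its other probe gave -0.33 (adjusted p = 0.344). LCP2 (SLP-76), the relative of BLNK known from T cells, exceeded background clearly on 3 of 3 arrays with IL-17A but on 0 of the control arrays. It therefore entered the tests through its IL-17A arrays alone, and its call is not separate from that filter. LCP2 was at least 1.49-fold higher. That bound was set against the higher of its own signal and the lowest normalized signal well above background on each control array. The measured mean log2 signals of LCP2 were 2.74 and 1.93, and the limma adjusted p of 0.0347 belongs to their difference, 0.81, not to the bound. PPP3R1, the calcineurin regulatory subunit, also passed 1.5-fold at an unadjusted p (log2 fold change 0.62, adjusted p = 0.0895). Its control arrays were widely spread, at 6.19, 6.54 and 6.91, against 7.24, 7.14 and 7.11 with IL-17A. These 3 genes (LAIR1, LCP2 and PPP3R1) were those of the list past both thresholds by their measured signals (the bound for LCP2 lies just under 1.5-fold), and no member of the 45 joined them at its brightest probe.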

How the data were processed

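RNA of 3 IL-17A and 3 control samples of SU-DHL-2 cells was hybridised to Agilent 4 x 44K one-colour arrays, and samples were grouped by their titles. The deposited scanner files, made with Agilent Feature Extraction 11.0.1.1 per the submitters' processing notes, give the background-subtracted intensity of each spot on a linear scale. A series table holds the authors' own quantile normalized log2 values, and served as an alternative.

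Control spots and 61 non-uniform spot values were left out, intensities below 1 were set to 1, and log2 values were averaged over the spots of each probe (43118 spots, 34127 probes). Arrays were quantile normalized, as in the study's methods. A probe was tested if positive, significant and well above background on at least 3 of 6 arrays, and called so on an array if at least 0.5 of its spots were (23945 probes, 14747 named genes). Genes were named through RefSeq accessions (GRCh38.p14 gene table, 25771 probes matched). No array coordinates were used.

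Groups were compared by two-sided limma tests (version 3.58.1, R 4.3.3) with no covariate, and p-values were adjusted by Benjamini-Hochberg over all tested probes. The number of arrays limits the precision. The replicate numbers did not pair the samples (correlations of same-numbered deviations -0.087, -0.0022 and -0.047). A gene is given at its brightest tested probe (highest mean over the 6 arrays). Members and lists were chosen with earlier results of these data known. Full values are given for members past a threshold at any probe and for central members, and others by range. Of the further pathway genes, those past both thresholds, those with the lowest p and, chosen after their values were seen, every gene with an adjusted p under 0.05 are named. Alternatives covered normalization, background correction, the deposited log2 table, detection filters, a floor, a variance trend, the methods' t-test, a replicate block, the scan as a block, averaging probes and leaving out each array. Some of the further pathway lists are counted in the total but not reported here one by one. The procedure was tested on simulated data.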

Additional observations from a re-analysis of the deposited data

How the results depend on the processing

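At its brightest probe, or averaged over its probes, no member passed 1.5-fold with an unadjusted p under 0.05 under any alternative run. A threshold of 2-fold was applied in the main setting only, and no member passed it at its brightest probe. The dimmer CBLB probe did pass 1.5-fold in the main setting (log2 fold change 0.80), and it gave 1.01 with the scan as a block. The count with adjusted p under 0.05, 2 in the main setting, was 3 with 75th percentile scaling, with the deposited log2 table, with detection on all 6 arrays and with the floor on dim signals. It was 0 without normalization, without a detection filter, with the methods' t-test and with the scan as a block, 4 with normexp, 5 with the mean over a gene's probes and 10 with a variance trend (7 higher, 3 lower). With the replicate numbers as a block (replicate block) it was 0, and whether these numbers pair the samples is not known. Leaving out any 1 array gave 0 to 0 calls, where 1 to 608 of all 14747 genes were called. The shares of all genes called in these settings were 7.85% in the main setting, 0.190% without normalization, 4.82% without a detection filter, 5.93% with the methods' t-test, 0.210% with the scan as a block, 0.0203% with the replicate block, 9.89% with normexp, 11.6% with the mean over probes and 17.7% with a variance trend. FCGR2B and LIME1 kept an unadjusted p under 0.05 in 18 of 18 alternatives each, with adjusted p of 0.0307 to 0.163 and 0.0352 to 0.197, and NFATC3 and PLCG2 did so too, with adjusted p of 0.0171 to 0.174 and 0.0260 to 0.208. The alternatives draw on the same 6 arrays, and several leave a gene's log2 fold change as in the main setting, so they are not independent tests. With the scan as a block the difference was smaller in size for CD79A (-0.13), BTK (0.20), BLNK (0.091), INPP5D (0.087) and NFATC2 (0.26). It was larger in size for CD22 (0.41), LYN (0.11), PLCG2 (0.30), NFATC3 (0.40) and ORAI1 (-0.27). The median log2 fold change of the members, 0.028, was 0.077 with the scan as a block and 0.0034 to 0.064 on leaving out 1 array, highest without IL-17A replicate 2.

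Of 809 single values under the alternatives, 714 kept their direction and side of the threshold, 36 lost the threshold, 18 gained it and 41 reversed, all in 14 genes with differences of at most 0.11. Without normalization the log2 fold change was 0.0040 for CD72, 0.032 for RASGRP3, 0.029 for PIK3AP1, 0.021 for CBL, -0.037 for DOK3, 0.017 for ITPR3 and 0.023 for NFATC1. With 75th percentile scaling it was 0.0062 for RASGRP3, 0.0037 for PIK3AP1 and -0.063 for DOK3, and with normexp 0.00046 for VAV1, 0.0079 for PIK3AP1, 0.016 for CBL and 0.0025 for NFATC1. With the scan as a block it was 0.016 for CD72, 0.048 for CD81, 0.014 for RASGRP3, 0.059 for PIK3AP1 and 0.019 for PTPN6. With the mean over probes it was 0.050 for SOS1, 0.064 for RASGRP3, -0.072 for DOK3 and 0.077 for NFATC1. Leaving out 1 array gave -0.028 to 0.17 for CD37, -0.14 to 0.017 for BLK, -0.13 to 0.064 for SOS1, -0.028 to 0.011 for RASGRP3, -0.048 to 0.024 for PIK3AP1, -0.068 to 0.016 for PTPN6, -0.066 to 0.017 for CBL, -0.0081 to 0.083 for CBLB, -0.029 to 0.078 for DOK3, -0.071 to 0.012 for ITPR3 and -0.040 to 0.031 for NFATC1. The cause of these shifts was not tested. Signal over background limits the dimmer CBLB probe, whose control signal lay close to the lowest signal well above background.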
